A study of Mus musculus with 4 samples.

Results

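Oxidative phosphorylation subunit genes are the nuclear genes for the proteins of complexes I to V of the inner mitochondrial membrane. They were taken here as every mouse probe whose gene name in the scanner files begins with Nduf (complex I), Uqcr (complex III), Cox4 to Cox8 (complex IV) or Atp5 (complex V), or is Sdha, Sdhb, Sdhc or Sdhd (complex II). This gave 118 probes for 88 gene names, of 31709 gene names on the array. Among them were 42 names of complex I, 4 of complex II, 7 of complex III, 19 of complex IV and 16 of complex V. The prefixes also took in some names that are not subunits, namely the complex I assembly factors Ndufaf1 to Ndufaf4, Cox4nb (Emc8 in RefSeq, a protein of the endoplasmic reticulum named for its position beside a Cox4 gene), Atp5s and Atp5sl (Dmac2l and Dmac2 in RefSeq). Ndufa4 is counted with complex I by its name, although its product is known as a subunit of complex IV.

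Complexes I and II pass electrons from NADH and succinate to coenzyme Q, complex III passes them on to cytochrome c, and complex IV hands them to oxygen. Complexes I, III and IV pump protons as they do so, and complex V, the ATP synthase, makes ATP from the return of these protons. A few subunits of complexes I, III, IV and V are encoded in mitochondrial DNA and all others in the nucleus, so that both sets of transcripts are needed for assembly. Lymphocytes that are stimulated to divide add mitochondrial mass and respire more.

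The imatinib group was 2 samples of splenocytes from 8-week-old female C57BL/6 mice, which had grown for 72 h with IL-4, LPS and 10 µM imatinib, a drug that blocks ABL, KIT and PDGF receptor kinases. The control group was 2 samples kept in the same way without the drug, so both groups received IL-4 and LPS, a stimulus for B cells. The study asked by which pathways the drug acts on activated B cells, and the one comparison its design holds is imatinib against control. The labels do not give the animals or cultures behind the samples, so p-values measure only the spread between these samples, which may be technical.

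RNA was hybridised to 1-colour Agilent arrays, 1 per sample, all on 1 slide. Processed signals had a 75th percentile of 699 and 678 with imatinib and of 739 and 854 in control, and Pearson's r over the tested probes was 0.998 within imatinib, 0.997 within control and 0.982 to 0.984 between the groups (probes are not independent replicates). Values below, called log2 signal, are log2 processed signals minus the 75th percentile of the array, and differences are imatinib minus control. Probes entered the limma test when both arrays of a group read them as well above background, and a gene was called higher or lower at a Benjamini-Hochberg adjusted p under 0.05 over all 25375 tested probes. Of the 88 names, 84 were tested, each by its brightest tested probe (111 probes in all). Cox7b2, Cox8b and Cox8c, which encode subunit isoforms of testis or of heart and muscle, were not well above background on any array. Atp5e, the epsilon subunit of the ATP synthase, was left out because spots were marked as outliers; its remaining log2 signals were 6.62 on imatinib array 1 and 6.61 on control array 2. No exact permutation test of 2 against 2 arrays can give a two-sided p under 0.333, so only the fit over all probes was used for calls.

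B cell markers were well above background in both groups, and the B cell receptor component Cd79b had log2 signals of 7.25 and 7.33 with imatinib and 7.37 and 7.22 in control. Markers of other cells moved between the groups. With imatinib, 6 of 8 T cell markers were higher and 0 lower (median 1.78). Of 7 macrophage markers 3 were higher (median 0.28, largest for Adgre1 at 3.60), and of 3 red cell markers 2 were higher. A red cell marker among the 3 entered the test through the imatinib arrays only, as it was above background on neither control array. Of 7 B cell markers 4 were lower and 1 higher (median -0.25). Of all 20500 genes tested, 19.4% were called higher and 21.7% lower. The mean signal of the T cell list, taken on the linear scale and then as log2, was 1.57 and 1.57 on the imatinib arrays against 0.24 and 0.12 on the control arrays, that of the macrophage list -0.37 and -0.29 against -1.01 and -1.04, and that of the B cell list 5.05 and 5.11 against 5.27 and 5.17. Of 5 plasma cell markers, 2 were higher and 2 lower (median -0.04). C1qa and C1qc of the macrophage list were not well above background on both arrays of either group. In RNA of mixed cells, fewer cells of a type and less RNA per cell cannot be told apart, and the part of cell composition in the results below was not tested.

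The promoters of oxidative phosphorylation genes are known for sites of NRF1 and of ETS factors such as GABP. RefSeq (GRCm38.p6) gave the 250 bases before the start of 72 of the 88 genes. The NRF1 core GCGCA, any 1 base and then GCGC, searched on both strands, was present in 14 of these (19.4%), against 4.23% of 27025 promoters of all genes. It was found in 6 of 31 genes called lower with imatinib (19.4%), in 8 of 36 not called (22.2%) and in 0 of 2 called higher. The ETS core CCGGAAG, also on both strands, was present in 13 of the 72 (18.1%) and in 7.83% of all promoters, with 12.9% among the genes called lower and 22.2% among those not called. The E-box CAGGTG bound by E proteins, a family the study looked at, was present in 18.1% of the 72 and 19.4% of all promoters, with 9.68% among the genes called lower and 25% among those not called. A match describes the letters in these windows and is not evidence of binding, and none of the 3 motifs contains another. Upstream windows are printed below for a pair of complex II genes called lower that carry NRF1 matches (Sdha and Sdhd), for the widely expressed complex IV isoform gene Cox6a1, which carries such matches and was not called, and for the isoform genes Cox7a1 and Cox6b2, which were called and have none. Capitals mark NRF1 and ETS matches on either strand, and each sequence runs 5′ to 3′ on the strand of its gene up to the base before the start.
Sdha (chr13:74350241-74350490, minus strand): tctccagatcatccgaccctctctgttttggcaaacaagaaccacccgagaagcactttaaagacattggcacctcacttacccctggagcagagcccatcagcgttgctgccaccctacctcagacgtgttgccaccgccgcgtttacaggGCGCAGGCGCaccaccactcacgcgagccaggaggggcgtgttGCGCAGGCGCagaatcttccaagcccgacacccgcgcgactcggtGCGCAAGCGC
Sdhd (chr9:50603850-50604099, minus strand): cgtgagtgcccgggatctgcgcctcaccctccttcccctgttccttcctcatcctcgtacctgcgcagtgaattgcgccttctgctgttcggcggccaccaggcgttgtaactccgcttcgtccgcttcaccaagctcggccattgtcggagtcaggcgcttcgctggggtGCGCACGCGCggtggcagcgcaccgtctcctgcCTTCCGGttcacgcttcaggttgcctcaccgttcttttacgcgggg
Cox6a1 (chr5:115348959-115349208, minus strand): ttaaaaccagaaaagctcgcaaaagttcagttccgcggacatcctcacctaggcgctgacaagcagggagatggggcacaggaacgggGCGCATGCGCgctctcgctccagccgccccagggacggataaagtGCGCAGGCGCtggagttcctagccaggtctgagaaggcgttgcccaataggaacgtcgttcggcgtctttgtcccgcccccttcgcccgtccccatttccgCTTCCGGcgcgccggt
Cox7a1 (chr7:30183921-30184170, plus strand): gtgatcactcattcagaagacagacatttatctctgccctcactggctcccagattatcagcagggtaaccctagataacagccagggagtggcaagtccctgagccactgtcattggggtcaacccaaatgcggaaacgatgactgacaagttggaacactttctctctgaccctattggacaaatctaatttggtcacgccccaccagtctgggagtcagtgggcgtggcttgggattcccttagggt
Cox6b2 (chr7:4753095-4753344, minus strand): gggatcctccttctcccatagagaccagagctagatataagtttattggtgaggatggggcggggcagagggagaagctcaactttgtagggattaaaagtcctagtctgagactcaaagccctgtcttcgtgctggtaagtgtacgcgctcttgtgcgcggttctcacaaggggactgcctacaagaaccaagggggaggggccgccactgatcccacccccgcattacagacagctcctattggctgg
The Sdha window holds 3 NRF1 matches, that of Sdhd 1 with 1 ETS match, and that of Cox6a1 2 with 1 ETS match. Cox6a2 and Ndufs1 are named without a sequence.

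With imatinib, the oxidative phosphorylation genes were mostly a little lower, and 1 gene was much higher. Of 84 tested, 36 fell (42.9%), 3 rose (3.57%) and 45 were not called, where 21.7% of all 20500 genes tested fell and 19.4% rose. Their median log2 difference was -0.23, a median change of -15.0% in signal, against 0.01 over all genes, and the differences ran from -0.61 to 2.51. Cox6a2 alone reached a 2-fold change. For 74 of the 84 the difference was below 0. The share of all genes below 0 was not counted, and genes of like signal, described next, also had a median below 0 (-0.16). Both imatinib arrays lay below both control arrays for 67 genes (79.8%), and above them for 7, against backgrounds of 37.2% and 35.5% of all genes. These shares were not counted for genes of like signal.

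The probes of these genes were bright, with a median log2 signal of 4.89, against -1.12 over all genes, and genes of such signal in general were lower more often than all genes. Among the 1613 genes with a mean log2 signal between 3.39 and 5.60, which is the range between the quartiles of the members' signals, the median difference was -0.16 and 37.5% were called lower. The members' 42.9% stood above the 21.7% of all genes and nearer to the 37.5% of genes of like signal. That 42.9% is over all 84 members, also those outside this signal range. The share called lower among members within the range was not counted. Within the 84 genes, Pearson's r of difference and mean log2 signal was -0.05, and 0.16 over the 83 without Cox6a2. The part of signal level in the result was not tested further.

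**Figure D1:**
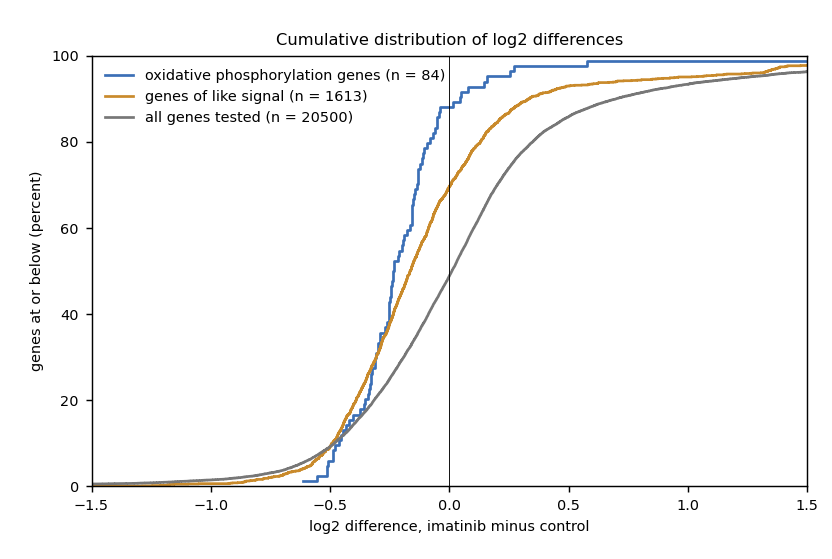
Cumulative share of genes (percent, vertical axis) at or below each log2 difference, imatinib minus control (horizontal axis, which leaves out the outermost genes), for the 84 oxidative phosphorylation genes, the 1613 genes of like signal and all 20500 genes tested. The curve of the oxidative phosphorylation genes crosses 50 percent at -0.23, that of genes of like signal at -0.16 and that of all genes at 0.01. The curve of the 84 genes also holds those outside the signal range of the 1613 genes.

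The count of calls fell when any 1 array was left out, which leaves 1 array in its group. The spread is then estimated within the 2 arrays of the other group only. Without imatinib array 1 the count of genes called lower was 1 (background 5.85%), Ndufab1 (-0.58, adjusted p = 0.046), and without imatinib array 2 it was 0 in limma (background 6.1%), with 27 and 26 genes lower at an unadjusted p under 0.05. Without control array 1 or control array 2 it was 18 each (backgrounds 15.7% and 14.2%). The count of genes called higher was 1 without imatinib array 2 (background 9.7%) and 2 without any one of the others (backgrounds 10.2%, 18.8% and 14.2%). The medians of the 84 genes were -0.23 without either imatinib array, -0.16 without control array 1 and -0.27 without control array 2. With no filter on dim probes, 8 were lower and 2 higher (backgrounds 5.18% and 7.36%). Quantile normalization gave 35 lower, and a filter on all 4 arrays 40, each with a background of 23.8%. The counts also depend on the scaling. Median centring moved the median of all genes to -0.18 and gave 67 lower and 2 higher members (backgrounds 35.3% and 13.1%), and scaling to spiked-in RNA moved it to -0.25 and gave 74 lower and 2 higher (backgrounds 43.4% and 11.7%). Relative to the median of all genes, the members' median was -0.24 as reported and under both of these scalings, -0.14 under quantile normalization and -0.28 with normexp background correction.

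**Figure D2:**
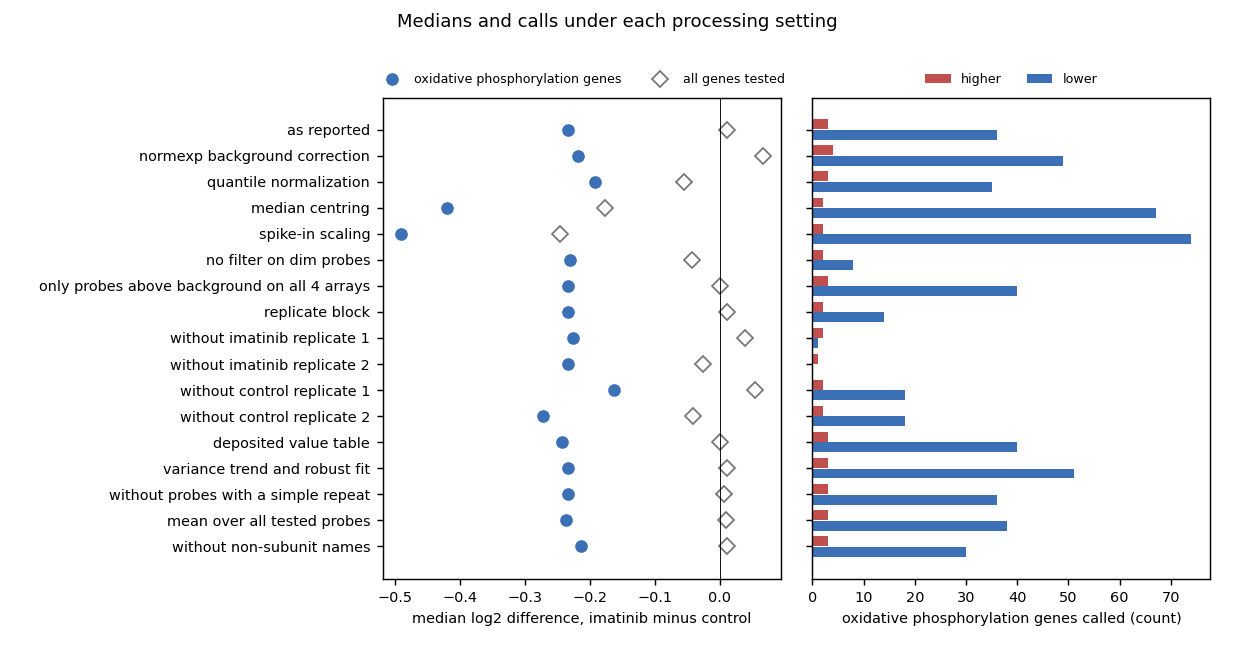
Left, the median log2 difference, imatinib minus control, of the oxidative phosphorylation genes (filled circles) and of all genes tested (open diamonds) under each processing setting. Right, the count of oxidative phosphorylation genes called higher (red) and lower (blue) under the same settings. The members' median stays below that of all genes in every setting shown, although median centring, spike-in scaling, the replicate block and the variance trend cannot change that gap. The count called lower differs widely between settings and is highest, at 74, under spike-in scaling.

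**Figure D3:**
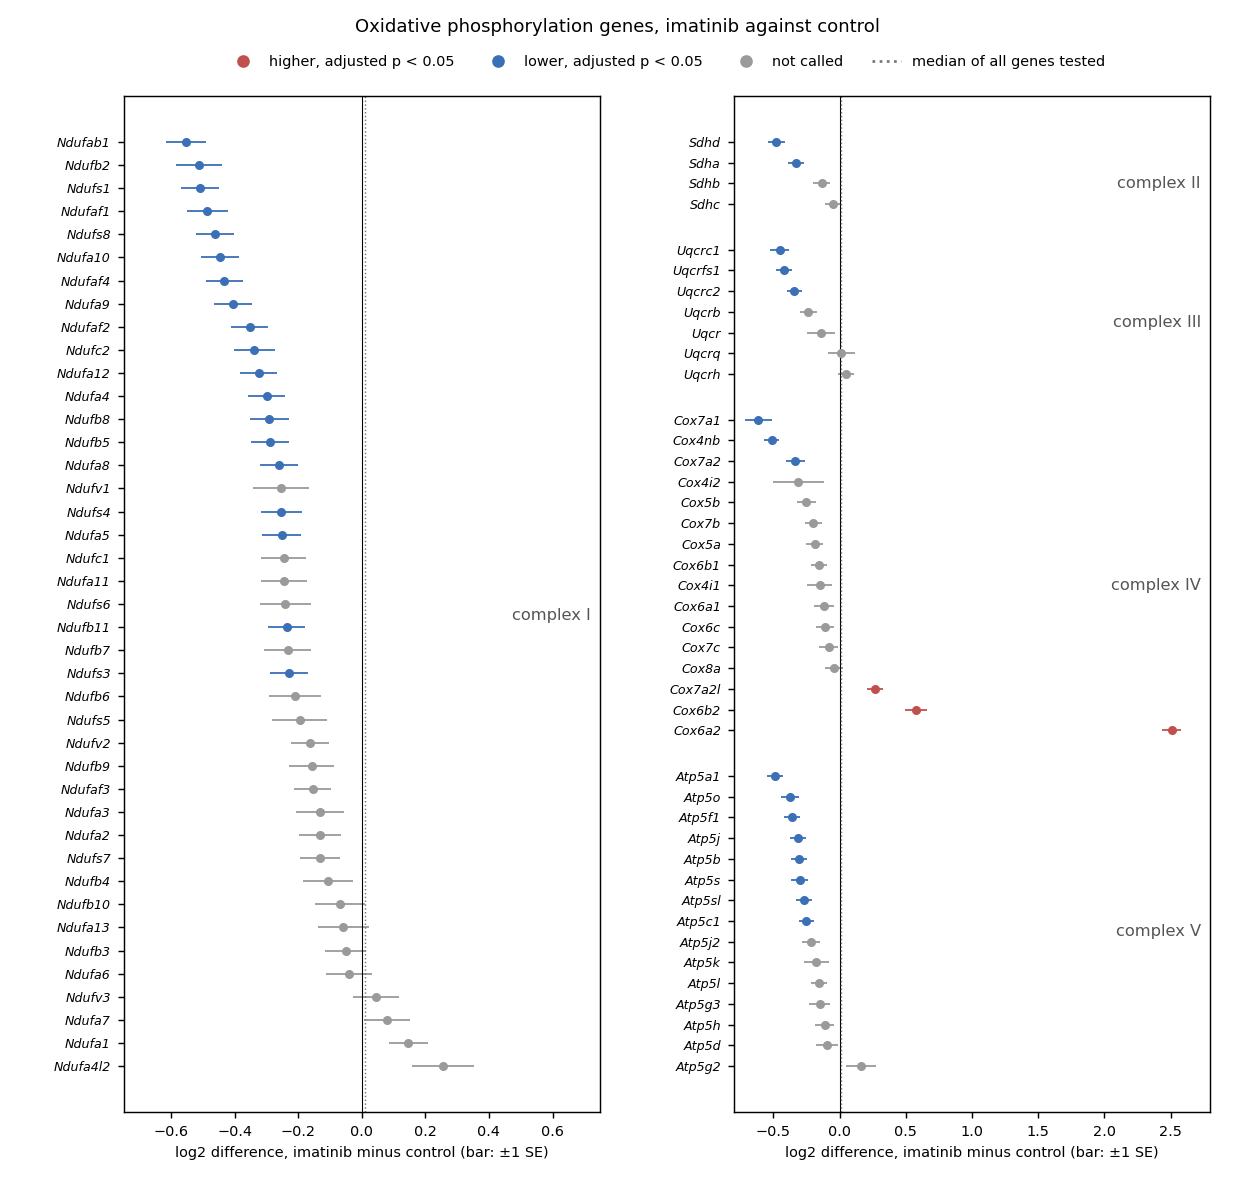
Log2 difference, imatinib minus control (horizontal axis), with ±1 SE as bars, for the tested genes by complex, 83 of 84 of them drawn, and in order of size. Red points passed the adjusted p threshold higher, blue points lower, and grey points were not called; the dotted line is the median of all genes. The left and right panels have different ranges because Cox6a2 lies at 2.51. Red points occur in complex IV only (3 genes), and blue points in all 5 complexes.

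Complex I, the NADH dehydrogenase, had 20 of 42 genes lower and 0 higher (backgrounds 21.7% and 19.4% of all genes). Its median difference was -0.24. The array medians of its genes were 4.58 and 4.58 with imatinib and 4.83 and 4.74 in control. Among the 7 nuclear core subunits of the matrix arm, which carry the flavin, the iron-sulphur clusters and the quinone site, 4 fell. Ndufs1, the largest iron-sulphur subunit, had log2 signals of 3.17 and 3.15 on the imatinib arrays, against 3.64 and 3.70 on the control arrays. That is a log2 difference of -0.51 (SE 0.061, adjusted p = 0.0077), and it fell by 29.8% in signal. Ndufs8, another iron-sulphur subunit, had 3.02 and 3.08 with imatinib, against 3.51 and 3.50 in control, a difference of -0.46 (SE 0.060, adjusted p = 0.0091). In both genes the imatinib arrays lay below the control arrays without overlap. Ndufs3, at the base of the arm, fell by less (-0.23, adjusted p = 0.045). Core subunits that were not called include Ndufs7 (-0.13, adjusted p = 0.17) and the NADH-binding module members Ndufv1 (-0.25, adjusted p = 0.086) and Ndufv2 (-0.16, adjusted p = 0.095).

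Of the 30 tested Nduf names of other subunits (without the paralogue Ndufa4l2, and with Ndufa4, called lower at -0.30), 13 fell and 17 were not called (median -0.24). The background of lower calls was 21.7% of all genes. The largest fall in the complex was that of Ndufab1, the mitochondrial acyl carrier protein, which also serves fatty acid synthesis. Ndufab1 had log2 signals of 1.00 and 0.94 with imatinib, against 1.55 and 1.50 in control, a difference of -0.55 (SE 0.063, adjusted p = 0.0069). Ndufb2, a small subunit of the membrane arm, had 4.91 and 4.90 with imatinib, against 5.48 and 5.36 in control, a difference of -0.51 (SE 0.072, adjusted p = 0.011), and its other probe gave -0.47 (adjusted p = 0.0094). The groups did not overlap in either gene. At the other end, Ndufa1 differed by 0.15 (adjusted p = 0.13) and Ndufa4l2, a hypoxia-induced relative of Ndufa4, by 0.26 (adjusted p = 0.11), and neither was called. Ndufa4l2 was dim, at -4.58 and -4.50 with imatinib and -4.90 and -4.69 in control.

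The assembly factors within the naming rule are counted above with complex I. Ndufaf1 had log2 signals of 1.11 and 1.03 with imatinib, against 1.57 and 1.53 in control, a difference of -0.49 (SE 0.064, adjusted p = 0.0094). Ndufaf4 (-0.43) and Ndufaf2 (-0.35) also fell, and Ndufaf3 was not called (-0.15, adjusted p = 0.10). Over all 7 tested names that are not subunits, 6 fell and 0 rose (median -0.35), against backgrounds of 21.7% and 19.4% of all genes. Without them, the 77 tested subunit genes had 30 lower, 3 higher and a median of -0.21.

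Complex II, succinate dehydrogenase, links the chain to the tricarboxylic acid cycle. There, 2 of the 4 genes fell (background 21.7% of all genes), with a median of -0.23. Sdhd, a membrane anchor, had log2 signals of 3.93 and 3.93 on the imatinib arrays, against 4.36 and 4.45 on the control arrays, a difference of -0.48 (SE 0.064, adjusted p = 0.0097). Sdha, the flavoprotein that oxidises succinate, had 3.26 and 3.19 with imatinib, against 3.55 and 3.56 in control, a difference of -0.33 (SE 0.061, adjusted p = 0.020). Neither gene overlapped between groups; their upstream windows are the first of those printed above. Sdhb, the iron-sulphur subunit, was read differently by its probes: the brighter gave -0.14 and was not called (adjusted p = 0.16), and the other gave -0.33 (adjusted p = 0.020). The second anchor, Sdhc, was not called on either probe (-0.05 and 0.04).

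In complex III the 3 large subunits within the naming rule fell and the 4 small ones were not called (medians -0.42 and -0.06). The background of lower calls was 21.7% of all genes. Cyc1, for cytochrome c1 of this complex, lies outside the rule and is counted in a list below. It also fell (-0.39, adjusted p = 0.013). Uqcrc1, a core protein, had log2 signals of 3.09 and 3.21 with imatinib, against 3.63 and 3.58 in control, a difference of -0.45 (SE 0.073, adjusted p = 0.014). Uqcrfs1, the Rieske iron-sulphur protein, had 3.63 and 3.57 with imatinib, against 4.03 and 4.01 in control, a difference of -0.42 (SE 0.061, adjusted p = 0.011). Uqcrc2, the second core protein, had 4.18 and 4.17 with imatinib, against 4.50 and 4.53 in control, a difference of -0.34 (SE 0.058, adjusted p = 0.016). All 3 were lower on both imatinib arrays than on both control arrays. Of the small subunits, Uqcrh (0.05, adjusted p = 0.55), Uqcrq (0.01, adjusted p = 0.92) and Uqcr (Uqcr11 in RefSeq, -0.14, adjusted p = 0.34) were not called. Uqcrb missed the threshold on its brightest probe (-0.23, adjusted p = 0.054) and passed on a second one (-0.27, adjusted p = 0.028). The difference between large and small subunits was not tested.

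Complex IV, cytochrome c oxidase, held all 3 genes that rose, and 3 of its 16 tested genes fell (median -0.15). These shares, 18.8% each, lay below the 19.4% of all genes that rose and the 21.7% that fell. It is the complex with the most tissue-restricted paralogues, and these carried its largest differences. Cox6a2, the heart and skeletal muscle form of subunit 6a, had log2 signals of 2.12 and 2.17 on the imatinib arrays, against -0.31 and -0.42 on the control arrays. Its means were 2.14 ± 0.030 with imatinib and -0.36 ± 0.080 in control (SD, n = 2 arrays each), a log2 difference of 2.51 (SE 0.071, adjusted p = 0.00071) or 5.68-fold, where 6.29% of all genes were called higher and at least 2-fold. Over all alternatives its difference stayed between 2.25 and 2.56, with an adjusted p of 4.5e-11 to 0.0092. Its widely expressed paralogue Cox6a1 had 7.75 and 7.78 with imatinib, against 7.95 and 7.81 in control, and was not called (-0.12, adjusted p = 0.27).

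Cox6b2, the testis form of subunit 6b, had log2 signals of -0.48 and -0.36 with imatinib, against -0.94 and -1.06 in control, a difference of 0.58 (SE 0.082, adjusted p = 0.011). That call ended without imatinib array 2 (adjusted p up to 0.063 over the alternatives), and the difference was 0.32 under spike-in scaling and 0.39 with median centring. Its paralogue Cox6b1 was not called (-0.16, adjusted p = 0.10). Cox7a2l, a relative of subunit 7a that acts in the joining of complexes III and IV into supercomplexes, had 6.34 and 6.34 with imatinib, against 6.10 and 6.04 in control, a difference of 0.27 (SE 0.060, adjusted p = 0.030). Its other probes gave 0.24 (adjusted p = 0.054) and 0.19 (adjusted p = 0.13), and the call was lost under spike-in scaling (0.01), with median centring (0.08), with the replicate number as a block, with no filter on dim probes and when any one of the 4 arrays was left out.

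In the 7a family the muscle form and the widely expressed form both fell. Cox7a1, the heart and muscle form, had log2 signals of -1.66 and -1.74 with imatinib, against -0.97 and -1.20 in control, a difference of -0.61 (SE 0.10, adjusted p = 0.015), the lowest of the 84 genes. Cox7a2 had 4.86 and 4.83 with imatinib, against 5.23 and 5.12 in control, a difference of -0.33 (SE 0.068, adjusted p = 0.025). The muscle isoforms Cox6a2 and Cox7a1 thus differed in opposite directions in the same arrays. Cox4nb, which is not a subunit, had 1.22 and 1.23 with imatinib, against 1.75 and 1.72 in control, a difference of -0.51 (SE 0.058, adjusted p = 0.0068). Cox4i2, a lung and hypoxia isoform, varied more between control arrays than between groups, with -2.20 and -2.02 with imatinib and -1.55 and -2.05 in control (-0.31, adjusted p = 0.27).

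The other general subunits of complex IV had differences below 0 and were not called. Cox5b differed by -0.25 (adjusted p = 0.053), Cox7b by -0.20 (adjusted p = 0.087) and Cox5a by -0.19 (adjusted p = 0.085). Cox4i1, the general form of subunit 4, differed by -0.15 (adjusted p = 0.27), with 6.92 and 7.01 with imatinib and 7.21 and 7.01 in control, and Cox8a by -0.04 (adjusted p = 0.63). Over the 14 tested genes with tissue-restricted or paralogous isoforms in complexes I, IV and V, 3 rose, 2 fell and 9 were not called (median -0.14). Over all genes, 19.4% rose and 21.7% fell.

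**Figure D4:**
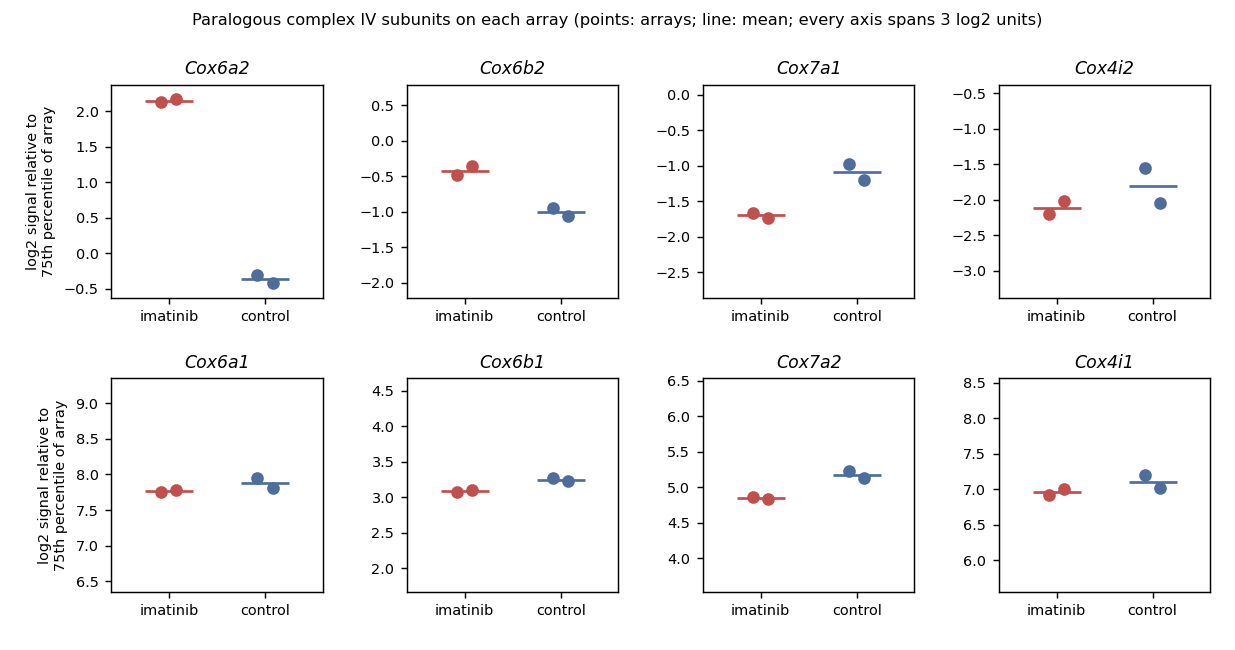
Log2 signal after scaling each array to its 75th percentile (vertical axes, each spanning 3 log2 units) of 4 tissue-restricted complex IV isoform genes (top) above their widely expressed paralogues (bottom), with imatinib on the left and control on the right. Points are arrays and lines are means of n = 2. Cox6a2 and Cox6b2 are higher with imatinib, Cox7a1 and Cox7a2 are lower, and Cox6a1, Cox6b1, Cox4i1 and Cox4i2 were not called.

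In complex V, the ATP synthase, 8 of 15 tested genes fell and 0 rose (backgrounds 21.7% and 19.4% of all genes). The median was -0.25. Among the falls, 3 were in the catalytic head and its central stalk and 3 in the peripheral stalk that holds the head. The others were those of Atp5s and Atp5sl, which are not subunits. Of the F1 head and central stalk, 3 of 4 tested genes fell. Atp5a1, the alpha subunit, had log2 signals of 5.29 and 5.28 on the imatinib arrays, against 5.80 and 5.74 on the control arrays, a difference of -0.49 (SE 0.059, adjusted p = 0.0080). Atp5b, the catalytic beta subunit, had 6.92 and 6.98 with imatinib, against 7.28 and 7.24 in control, a difference of -0.31 (SE 0.061, adjusted p = 0.022). Atp5c1, the gamma subunit that turns inside the head, had 5.40 and 5.41 with imatinib, against 5.68 and 5.63 in control, a difference of -0.25 (SE 0.059, adjusted p = 0.035). None of these overlapped between groups.

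Of the 4 genes of the peripheral stalk, 3 fell (background 21.7% of all genes), with a median of -0.34. Atp5o, which ties the stalk to the head, had log2 signals of 4.11 and 4.15 with imatinib, against 4.56 and 4.45 in control, a difference of -0.37 (SE 0.069, adjusted p = 0.020). Atp5f1 (Atp5pb in RefSeq), subunit b, had 4.21 and 4.20 with imatinib, against 4.53 and 4.59 in control, a difference of -0.36 (SE 0.060, adjusted p = 0.015), with -0.36 on its other probe too. Atp5j, coupling factor 6, had 4.46 and 4.47 with imatinib, against 4.81 and 4.75 in control, a difference of -0.31 (SE 0.060, adjusted p = 0.022). The 2 tested genes of the proton-carrying c ring were not called: Atp5g2 had 7.33 and 7.14 with imatinib, against 7.17 and 6.97 in control (0.16, adjusted p = 0.32), with overlap of the groups, and Atp5g3 differed by -0.15 (adjusted p = 0.22). None of the 3 tested accessory genes of the membrane part, Atp5j2, Atp5k and Atp5l, was called on its brightest probe (median -0.18). A dimmer probe was called lower for Atp5j2 (-0.29, adjusted p = 0.033) and for Atp5l (-0.26, adjusted p = 0.028). The other tested probes of the 3 genes were not called. Whether head, stalk and ring differ from each other was not tested.

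A list of 20 nuclear subunits held the core of the complex I matrix arm, all of complex II, and Uqcrc1, Uqcrc2 and Uqcrfs1 of complex III. It also held Cox4i1, Cox5a and Cox5b of complex IV, and Atp5a1, Atp5b and Atp5c1 of complex V. On this list 12 were lower, 0 higher and 8 not called (median -0.28). Over all genes, 21.7% were lower and 19.4% higher. Among the 1613 genes of like signal to the members, 37.5% were lower. Several probes were tested for 22 genes. In 5 of these every tested probe was called the same way, in 8 none was called, in 9 some probes were called and others not, and in 0 were probes called in opposite directions. Over the 118 probes, 47 were lower, 4 higher and 60 not called, while 4 were left out for marked spots and 3 were not above background. Of all 25375 probes tested, 41.9% were called in either direction. The extra higher probe is a dim one of Ndufv3 (0.24, adjusted p = 0.037), a complex I gene whose bright probe gave 0.05 (adjusted p = 0.65).

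Genes that serve the same pathway were examined through lists that overlap the members only in 4 assembly factors. Of 44 respiratory chain assembly factors tested, 22 fell and 1 rose (backgrounds 21.7% and 19.4% of all genes), with a median of -0.28. The largest falls were those of Acad9 (-0.98, SE 0.057, adjusted p = 0.0018), an acyl-CoA dehydrogenase that assembles complex I, of Coa7 (-0.80, adjusted p = 0.0073), a complex IV assembly factor, and of Sdhaf3 (-0.64, adjusted p = 0.0070), which serves complex II. Acad9 had log2 signals of 1.52 and 1.52 with imatinib, against 2.49 and 2.52 in control. Lyrm7, which delivers the Rieske protein to complex III, was the gene that rose (1.12, adjusted p = 0.0026), with -2.93 and -2.83 with imatinib, against -3.95 and -4.06 in control.

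Of 15 genes of cytochrome c, cytochrome c1 and coenzyme Q synthesis, 8 fell and 2 rose (backgrounds 21.7% and 19.4%), with a median of -0.35. Pdss1, which makes the side chain of coenzyme Q, fell (-0.75, adjusted p = 0.0053), as did Coq4 (-0.67, adjusted p = 0.0062), a coenzyme Q synthesis factor. Cycs, cytochrome c itself, had log2 signals of 4.81 and 4.75 with imatinib, against 5.35 and 5.38 in control, a difference of -0.58 (SE 0.061, adjusted p = 0.0059). The genes that rose were Coq8a (Cabc1 in the files, 0.59, adjusted p = 0.0070), an atypical kinase, and Coq10a (0.32, adjusted p = 0.018).

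Of 23 genes of the tricarboxylic acid cycle and pyruvate dehydrogenase, 10 fell and 2 rose (backgrounds 21.7% and 19.4%), with a median of -0.16. That median was -0.075 under quantile normalization, -0.35 with median centring and -0.42 with spike-in scaling. Suclg1, of succinyl-CoA ligase, fell (-0.87, adjusted p = 0.0057), with 2.82 and 2.94 with imatinib, against 3.68 and 3.83 in control. Idh3a, the catalytic subunit of NAD-dependent isocitrate dehydrogenase, also fell (-0.81, adjusted p = 0.0060). The phosphatases and kinases that set pyruvate dehydrogenase activity differed among themselves: the phosphatase Pdp2 fell (-0.57, adjusted p = 0.0098), and the phosphatase Pdp1 (0.73, adjusted p = 0.0057) and the kinase Pdk2 (0.50, adjusted p = 0.046) rose.

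Among 21 genes of mitochondrial DNA upkeep and biogenesis, 6 fell and 2 rose (backgrounds 21.7% and 19.4% of all genes), with a median of -0.16. Those with the largest falls were Tfb1m, a mitochondrial rRNA methyltransferase (-0.61, adjusted p = 0.011), the growth regulator Myc (-0.60, adjusted p = 0.013) and Ssbp1, which binds single-stranded mitochondrial DNA (-0.45, adjusted p = 0.046). Sirt3, a mitochondrial deacetylase, rose (0.43, adjusted p = 0.012). Ppargc1a, the coactivator PGC-1 alpha, is counted among the 2 that rose (adjusted p = 0.0096 in limma). It was well above background on both imatinib arrays and on neither control array, so it entered the test through the imatinib arrays only. In the reported values its bound was at least 1.91-fold higher with imatinib (measured log2 signals -5.28 and -5.63 against -7.19 and -7.88). Over the alternatives its fitted log2 difference ran from 0.44 to 2.42, so the bound does not hold for every setting. The list also holds the factors whose motifs were searched above: Nrf1 was not called (-0.17, adjusted p = 0.13), and of the GABP subunits Gabpa fell (-0.25, adjusted p = 0.0495) and Gabpb1 was not called (0.12, adjusted p = 0.16).

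The mitochondrially encoded partners of these subunits were mostly not called. Of 12 tested, 2 fell and 1 rose (backgrounds 21.7% and 19.4% of all genes), with a median of -0.12. ND1, a core membrane subunit of complex I, had log2 signals of 3.22 and 3.24 with imatinib, against 4.0 and 4.09 in control, a difference of -0.82 (SE 0.066, adjusted p = 0.0036). ND4, another, fell by 0.25 on the log2 scale (adjusted p = 0.036). ND6, the subunit encoded on the light strand, rose (0.39, adjusted p = 0.048). The complex IV subunits COX1 (-0.03, adjusted p = 0.76) and COX2 (0.14, adjusted p = 0.36) were not called. With median centring the median of this list was -0.31, and with spike-in scaling -0.38, where those of the 84 nuclear genes were -0.42 and -0.49. Those settings shift both alike, while quantile normalization gave -0.18 for this list and -0.19 for the nuclear genes. The difference between nuclear and mitochondrial transcripts was not tested, and neither was the strand a probe of overlapping mitochondrial transcripts reads.

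Of 13 genes for the ATP synthase inhibitor, uncouplers and other dehydrogenases that feed coenzyme Q, 5 fell and 1 rose (backgrounds 21.7% and 19.4%). Their median was -0.11. The adenine nucleotide carrier Slc25a5, which exchanges ADP for ATP across the inner membrane, fell (-0.63, adjusted p = 0.0065), as did Aifm1, a flavoprotein needed for complex I (-0.59, adjusted p = 0.0064), and Dhodh, the pyrimidine synthesis enzyme that reduces coenzyme Q (-0.42, adjusted p = 0.015). Sqor (Sqrdl in the files), which oxidises sulphide and passes electrons to coenzyme Q, had log2 signals of -2.70 and -2.83 with imatinib, against -5.23 and -5.29 in control, a difference of 2.49 (SE 0.075, adjusted p = 0.00074).

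**Figure D5:**
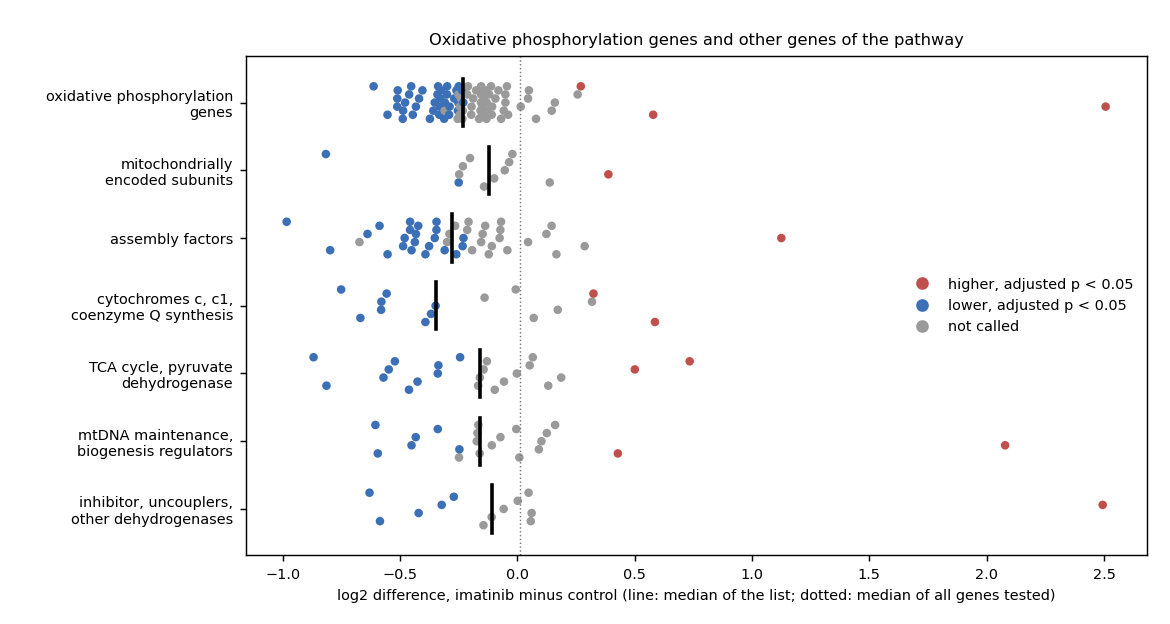
Log2 difference, imatinib minus control (horizontal axis), of each tested gene in the oxidative phosphorylation set and in 6 further lists of the pathway, with the median of each list as a bar and the median of all genes as a dotted line. Red and blue points passed the adjusted p threshold higher or lower, and grey points were not called. All 7 medians lie between -0.35 and -0.11; the rightmost points are Cox6a2 at 2.51, Sqor at 2.49 and Ppargc1a at a fitted 2.08, which is not a bound.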

How the data were processed

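RNA of 4 splenocyte samples was labelled with Cy3 and read on 4 Agilent arrays (design 026655) with 43020 spots for 39429 probes. Per the labels, an RNeasy kit gave the RNA, and each array took 1650 ng of cRNA at 65 °C over 17 h. Scanner files deposited by the authors give a fluorescence intensity for each spot, made with Feature Extraction 9.1.3.1 per the file headers, with the processed signal background-subtracted within each array. The deposited value table holds log2 values of the same arrays; the labels name GeneSpringGX. Each of its columns matched the log2 processed signal minus 1 constant within 0.01 for 100% of single-spot probes (Pearson's r 1). Its columns had medians of -3.99 and -3.92 (imatinib) and of -4.10 and -4.17 (control), and its scale, direction and centring were settled by this match.

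From the scanner files, control spots and marked outlier spots were dropped, the remaining spots of a probe were averaged on the log2 scale, and each array was scaled to its 75th percentile. The 4 arrays had 25192 and 26762 (imatinib) and 25336 and 25018 (control) probes well above background, and 0 spots were saturated; 25467 probes passed the filter and 92 of them were left out for marked spots. The number of arrays limits the precision. The test was limma's (version 3.58.1 in R 4.3.3; lmFit and eBayes, two-sided, group only), with 2 residual and 2.05 prior degrees of freedom and a prior SD of 0.079. A gene was represented by the brightest of its tested probes. A gene above background in 1 group only is given as a bound against the lowest signal of any probe well above background. Gene names came from RefSeq GRCm38.p6, through the accession for 26055 probes, the symbol for 3195 and a synonym for 930; the files' own name was kept for 9249.

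The members and all lists were chosen with earlier results of these data known. Named with values are up to 4 called genes per direction and complex, the list of 20 nuclear subunits, and the isoform genes. In each other list they are up to 3 called genes per direction. Genes outside that rule (Ndufa1, Ndufa4, Ndufaf2 to Ndufaf4, Ndufv3, the small complex III subunits, Adgre1, Cd79b, Nrf1, Gabpa, Gabpb1, COX1 and COX2) were chosen after their values were seen, and 2 genes under these rules or lists are not reported here by name. Alternatives were normexp background correction (offset 50), quantile normalization, median centring, spike-in scaling, other filters on dim probes, a block for the replicate number, fits without 1 array, the deposited table, a variance trend with robust fitting, the mean over probes, no repeat-bearing probes (runs of at least 12 bases) and no non-subunit names.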

Additional observations from a re-analysis of the deposited data

How the results depend on the processing

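The members' median log2 difference stayed below the median of all genes under every alternative run. Median centring, spike-in scaling, the replicate block and the variance trend cannot change that gap (-0.24 in each), so they are no check of it. The gap to genes of like signal was not followed over the alternatives. The count of 36 lower calls did not hold. It was 67 under median centring, 74 under spike-in scaling, 8 with no filter on dim probes (31655 genes tested, so the adjustment is over more tests) and 0 to 18 when 1 array was left out; the count of 3 higher calls was 1 to 2 then. The 36 genes were all still lower under normexp, median centring, spike-in scaling, the filter on all 4 arrays, the deposited table and the variance trend, 30 of them under quantile normalization, 34 for the mean over probes, and 1, 0, 18 and 17 without imatinib 1, imatinib 2, control 1 and control 2. Median centring and spike-in scaling move all genes down (medians of all genes -0.18 and -0.25), so lower calls that stay lower under them are no check of the calls. Cox6a2 was called higher under every alternative. The labels pair no samples, and deviations of same-numbered samples correlated at -0.07 over 25375 probes; with the replicate number as a block 14 genes were lower and 2 higher.

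Medians of complexes I to V in that order with median centring were -0.43, -0.42, -0.42, -0.34 and -0.44. With spike-in scaling they were -0.50, -0.49, -0.49, -0.41 and -0.51; both settings move all genes together. Quantile normalization gave -0.18 for complex I and -0.16 for complex II, normexp -0.20 for complex V, the mean over probes -0.28 for complex II, and leaving out the non-subunit names -0.21 for complex V; the cause was not tested. With 1 array left out the medians ran from -0.29 to -0.19 for complex I, -0.26 to -0.21 for complex II, -0.28 to -0.19 for complex III, -0.19 to -0.059 for complex IV and -0.28 to -0.22 for complex V. Signs turned for Sdhc (0.044 under quantile normalization), Atp5g2 (-0.027 under median centring, -0.10 under spike-in scaling), Ndufa4l2 (-0.00071 under spike-in scaling) and Cox8a (0.0085 without control 1), none of them called in the reported values. Of the other values of single genes under alternatives, 794 kept their side of the threshold, 46 passed it only under the alternative and 144 only in the reported values.

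The labels do not say whether samples are separate cultures, 2 arrays per group give little information on spread, and signals of T cell and macrophage markers moved with the groups. Dim probes such as those of Ndufa4l2 and Cox4i2 lie nearest to background, where the background correction weighs most.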

Other observations

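Cox6a2 lies in RefSeq's gene order beside a row of integrin genes of myeloid cells. Itgax, the CD11c chain of dendritic cells and macrophages, is the second gene before it and differed by 3.45 on the log2 scale (SE 0.15, adjusted p = 0.0011 in limma), though it was well above background on the imatinib arrays only, so that this value is no bound. Itgad, whose annotated span overlaps that of Cox6a2 by 70 bases, was not above background on any array. The probes of Itgam, the third gene before it, gave 0.03 and 0.44, neither called, and -1.12 (adjusted p = 0.0035). On the other side, 9130023H24Rik (0.11) and Armc5 (-0.08) were not called, and Tgfb1i1, the third gene, was higher (1.49, adjusted p = 0.018). These neighbours were looked at after the value of Cox6a2 was known, and their part in it was not tested.

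Cox6a2 transcripts are also known from mouse plasmacytoid dendritic cells. Of 5 genes used as markers of these cells, chosen after the values were seen, Ccr9 (2.64, SE 0.080) and Tcf4 (0.36, SE 0.065) were called higher with imatinib in the fit over all probes and Bst2 was called lower (-0.32, SE 0.063). Siglech (0.30, adjusted p = 0.077) and Irf8 (-0.10, adjusted p = 0.25) were not called. The part of these cells in the Cox6a2 signal was not tested.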
